A study of Mus musculus with 12 samples.

Results

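The AMPA and kainate receptors are built from 9 subunits, and the 9 genes that encode them are described here in nuclei of the mouse cortex. The genes were chosen by name, Gria1 to Gria4 for the AMPA receptor and Grik1 to Grik5 for the kainate receptor, and all 9 were found among the 55335 genes of the count matrices. Single-nucleus RNA sequencing was performed on dissected cortex of 12 mice at P21 (postnatal day 21). The animals were 6 WT and 6 MYT1L Het mice of a line bred with C57BL/6J mice, both genotypes made up of 3 males and 3 females. The Het animals carried 1 copy of the Myt1l S710fsX frameshift allele in every cell, a germline change and not one limited to neurons. All 12 animals, WT included, had received AAV9 calling-cards reagents with a tdTomato reporter into the ventricles as newborns.

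AMPA receptors are tetramers of GluA subunits and carry most of the fast excitatory current in the brain. Kainate receptors are tetramers of GluK subunits, in which GluK1, GluK2 and GluK3 can form channels by themselves while the high-affinity subunits GluK4 and GluK5 need one of these as a partner. In both families the pore loop holds a glutamine codon, the Q/R site, that adenosine deaminase can edit to an arginine codon in the RNA of Gria2, Grik1 and Grik2, and the edited subunit lowers the calcium permeability of the channel.

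The stretch of coding sequence around this codon is shown because all 9 genes share the site and because editing there sets calcium entry. Each line gives the sense strand 5′ to 3′ from the longest coding transcript of GENCODE vM21 (GRCm38/mm10), and the capitals mark the unedited codon at the Q/R site.
Gria1: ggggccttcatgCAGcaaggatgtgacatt
Gria2: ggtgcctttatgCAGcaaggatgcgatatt
Gria3: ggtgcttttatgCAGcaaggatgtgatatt
Gria4: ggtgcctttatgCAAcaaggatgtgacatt
Grik1: ggagctctcatgCAGcaaggatcggagctg
Grik2: ggagctctcatgCAGcaaggttctgagctc
Grik3: ggctccctgatgCAGcaaggatctgaactg
Grik4: ggaggcttcatgCAGcaaggctccactatt
Grik5: ggtggcttcatgCAGcagggctcggagatc

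The 4 AMPA stretches shared 26 to 28 of their 30 bases in every pair. Grik1 and Grik2 shared 27 of 30, Grik4 and Grik5 shared 23, and Grik3 and Grik4 shared 18, the lowest value of any pair. The codon of Gria2 lies at chr3:80706911-80706913 on the minus strand in exon 11 of 16. That of Grik1 lies at chr16:87940542-87940544 on the minus strand in exon 13 of 18, and that of Grik2 at chr10:49244329-49244331 on the minus strand in exon 13 of 17. In Grik1, Grik2 and Grik3 the stretch spans a splice junction. Gene-level counts hold no base calls, so they give the level of each transcript and nothing on its editing.

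The genes are spread over 8 chromosomes. The AMPA subunit genes lie at chr11:57011387-57330244 on the plus strand (Gria1), chr3:80681450-80802835 on the minus strand (Gria2), chrX:41400854-41678601 on the plus strand (Gria3) and chr9:4417896-4796234 on the minus strand (Gria4). The kainate subunit genes lie at chr16:87895900-88290265 on the minus strand (Grik1), chr10:49094833-49788766 on the minus strand (Grik2), chr4:125490700-125714173 on the plus strand (Grik3), chr9:42518135-42944493 on the minus strand (Grik4) and chr7:25009849-25072346 on the minus strand (Grik5). Grik2 spans 693.9 kb, the longest of the 9, and Grik5 spans 62.5 kb, the shortest. Of the 9 loci, 6 contain other annotated genes, all on the same strand. Only within Grik2 did these hold more than 10 unique molecular identifiers (UMIs) in all, with 3461 UMIs in 6 short non-coding genes against 173297 UMIs assigned to Grik2, so that a part of the Grik2 signal may be split among them.

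After quality filters, 33116 nuclei of 78743 barcodes were kept, between 1551 and 4414 per animal, with a median of 2976 to 3398 UMIs per nucleus. No barcode was shared by animals. Myt1l RNA does not check the genotype, since a frameshift need not lower it: the level over all nuclei was 829.7 to 949.1 CPM (a counts-per-million value) in WT and 925.8 to 1012 CPM in Het animals, a log2 difference of 0.13 (edgeR, adjusted p = 0.705). Nuclei were assigned to classes from the UMIs of 122 marker genes, none of which is a receptor subunit. A class is called by its marker list with the ending "-like". There were 21372 excitatory nuclei, 8190 inhibitory nuclei and 3005 non-neuronal nuclei, and 16247 nuclei (49.1%) fell in 1 of 18 named classes. The edge of a class is a limit on a score: 495 of the 1021 L2/3 IT-like nuclei lay just inside it and 718 nuclei just outside. No component met the criteria for L5 IT or L5 ET neurons, and the dissected cortex also gave 717 DG-like and 1306 striatal projection-like nuclei. The L6b-like class also carried 84.7% of the L6 CT marker level of the L6 CT-like class. The L6 IT-like class met its naming limit narrowly (1.82 against 1.8) and carried 47.6% of the L2/3 IT marker level of the L2/3 IT-like class. The Sncg-like class also met this limit narrowly (1.81 against 1.8). The astrocyte-like class held 182 nuclei with at least 10 in 9 animals, 3 of them WT, and the vascular and leptomeningeal-like class 183 nuclei with at least 10 in 8 animals.

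Levels are given as CPM of all UMIs of a class in an animal, as the mean ± SD of the WT animals unless stated. A CPM compares a gene between classes. It does not compare genes of unequal length, and the sources used here do not say whether reads in introns were counted. Per kb of exon, Gria1 had the highest level over all WT nuclei of any subunit (224.1 CPM per exon kb), whereas per kb of the whole gene Gria2 had the highest (12.2 CPM per gene kb). The order of the genes thus depended on the length used, and no order between genes is read here.

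**Figure D1:**
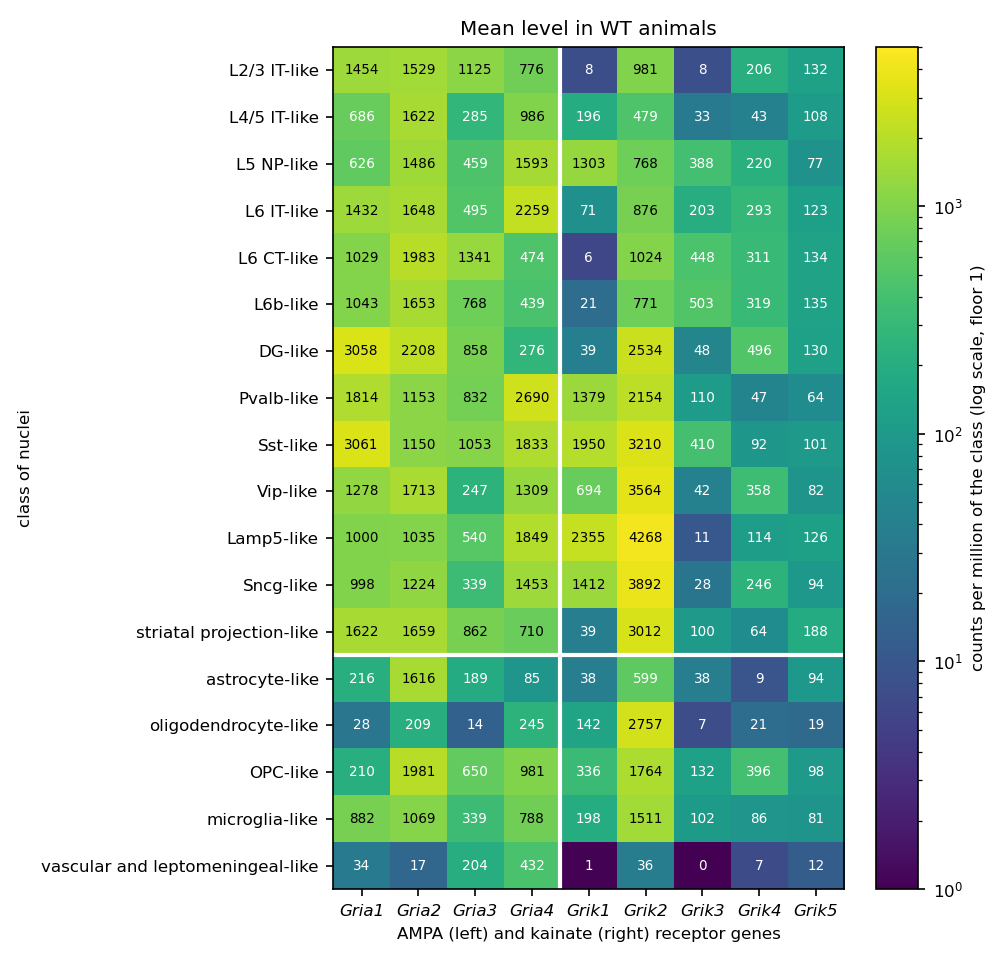
Mean level of each subunit gene (columns) in each class of nuclei (rows) in WT animals, in CPM of the class on a log colour scale with a floor of 1; the printed number is the mean. Grik1 and Grik3 show the widest range over the neuronal classes, from 6.22 to 2355 and from 8.13 to 503.1, and Gria2 (2.13-fold) and Grik5 (2.97-fold) the narrowest.

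Among the AMPA subunits, Gria2, which encodes the calcium-limiting GluA2, varied least across neurons. The highest of the 13 neuronal class means was 2.13 times the lowest, from 2208 ± 289.3 CPM in DG-like (dentate gyrus granule cell) nuclei to 1035 ± 137.4 CPM in Lamp5-like nuclei (n = 6 each). L6 CT-like nuclei had 1983 ± 175.5 CPM. The oligodendrocyte progenitor (OPC-like) class reached 1981 ± 189.5 CPM, as much as L6 CT-like neurons within the spread of the animals, while mature oligodendrocyte-like nuclei had 209.3 ± 48.3 CPM. Gria1, which encodes GluA1, a subunit known for its part in long-term potentiation, was highest in Sst-like (3061 ± 315 CPM) and DG-like nuclei (3058 ± 499.3 CPM). These lay beyond the larger SD above Pvalb-like nuclei, the next in order (1814 ± 205.8 CPM), and L5 NP-like nuclei were the lowest of the neurons (626.1 ± 82.8 CPM).

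Gria3 encodes GluA3 and lies on the X chromosome. It was highest in L6 CT-like nuclei (1341 ± 207.6 CPM), followed by L2/3 IT-like (1125 ± 174.3 CPM) and Sst-like nuclei (1053 ± 149.3 CPM). It was lowest among neurons in Vip-like nuclei, with 246.6 ± 77.2 CPM. Gria4 encodes GluA4, a subunit with fast kinetics that is known from fast-spiking interneurons. It was highest in Pvalb-like nuclei, at 2690 ± 178.1 CPM, then in L6 IT-like (2259 ± 546.2 CPM, n = 4) and Lamp5-like nuclei (1849 ± 185.4 CPM), and the DG-like class was the lowest neuronal class with 275.7 ± 85.1 CPM.

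Of the low-affinity kainate subunits, Grik1, which encodes GluK1, ranged most. Its mean was 2355 ± 164.8 CPM in Lamp5-like and 1950 ± 245.8 CPM in Sst-like nuclei, and the highest excitatory class was L5 NP-like (1303 ± 106.9 CPM), followed by L4/5 IT-like (195.7 ± 57.6 CPM). L2/3 IT-like and L6 CT-like nuclei had 7.85 ± 4.65 and 6.22 ± 1.25 CPM, a 379-fold range over the neuronal classes. The 3442 L6 CT-like nuclei held 81.5 Grik1 UMIs in all, and the summed inhibitory markers were at 9.38 CPM in the same class against 1214 CPM in all inhibitory nuclei. How many of these Grik1 UMIs came from free RNA was not tested.

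Grik2 encodes GluK2, the most widely used kainate subunit of the forebrain. It was highest in Lamp5-like (4268 ± 654.3 CPM), Sncg-like (3892 ± 251.2 CPM) and Vip-like nuclei (3564 ± 454.2 CPM) and lowest of the neurons in L4/5 IT-like nuclei (479.3 ± 68.2 CPM). The oligodendrocyte-like class had 2757 ± 389.7 CPM against 1094 ± 45.6 CPM over all excitatory nuclei. Its summed excitatory and inhibitory markers stood at 3.24% and 1.69% of the neuronal level, and the part of neuronal RNA in its Grik2 level was not tested. Grik2 made up a median of 94.7% of the kainate subunit UMIs in that class. Vascular and leptomeningeal-like nuclei had 35.9 ± 5.84 CPM (n = 3).

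Grik3 encodes GluK3, a subunit that needs high glutamate to open. It was concentrated in 4 neuronal classes, L6b-like (503.1 ± 133.9 CPM), L6 CT-like (447.5 ± 50.4 CPM), Sst-like (409.6 ± 33.2 CPM) and L5 NP-like nuclei (388.4 ± 50.3 CPM), and neighbours in this order differed by less than the larger SD. The next class, L6 IT-like, had 203.2 ± 39.3 CPM (n = 4). L2/3 IT-like and Lamp5-like nuclei had 8.13 ± 6.44 and 10.6 ± 4.64 CPM, and the range over the neuronal classes was 61.9-fold.

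The high-affinity subunits differed from each other. Grik4, encoding GluK4, which is known from the hippocampus, was highest in DG-like nuclei (496.4 ± 63.2 CPM), then in OPC-like (395.7 ± 137.7 CPM) and Vip-like nuclei (357.6 ± 105.6 CPM), and lowest of the neurons in L4/5 IT-like nuclei (42.8 ± 21.4 CPM). Grik5, encoding GluK5, ranged 2.97-fold over the neuronal classes, from 63.5 ± 6.41 CPM in Pvalb-like to 188.4 ± 52.5 CPM in striatal projection-like nuclei, and stood at 18.8 ± 8.20 CPM in oligodendrocyte-like nuclei. Over all 18 classes, only 1 of its 17 steps between neighbours exceeded the larger SD. For the other genes the number of such steps was between 2 (Gria1, Grik4) and 6 (Grik1) of 17. The microglia-like class carried 23.2% of the excitatory and 42.7% of the inhibitory marker level of neurons, and its subunit levels are given only in the plot of levels by class for that reason.

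The mix of subunits within each family also varied. Gria2 made up 14.9%, 16.0% and 18.0% (lowest, median and highest WT animal) of the AMPA subunit UMIs in Sst-like nuclei and 16.8%, 17.9% and 19.0% in Pvalb-like nuclei. In L6 CT-like nuclei it made up 38.4%, 40.8% and 43.2%, and in L4/5 IT-like nuclei 40.9%, 44.4% and 52.9%. The animals of these 2 interneuron classes did not overlap those of these 2 excitatory classes. The share did not separate interneurons from excitatory neurons as a whole: Vip-like nuclei had 27.1%, 40.2% and 43.1%, overlapping L6 CT-like nuclei, and Sncg-like nuclei (28.5%, 30.2% and 33.2%) overlapped L2/3 IT-like nuclei (27.8%, 31.3% and 34.7%). Such a share weighs long and short genes unequally and is read only between classes.

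The question of which subunits separate broad kinds of neurons was addressed with both sums taken from the same 12 animals. Excitatory nuclei differed from inhibitory nuclei in 7 of the 9 subunits, 3 higher and 4 lower, where 51.1% of the 12230 genes tested passed the same threshold (25.4% higher, 25.7% lower). A gene passed, here and for the genotype comparison, when its log2 difference exceeded 0.2 in size and its adjusted p lay under 0.05. The median absolute log2 difference of the 9 was 0.47. Adarb1, which encodes the enzyme that edits the Gria2 site, did not pass (log2 −0.05, adjusted p = 0.241). Adarb1 was chosen for mention after its values were seen.

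Grik1 had the largest difference of the 9. It was at 80.3, 112 and 168.4 CPM (lowest, median and highest animal) in excitatory and 859.5, 1088 and 1407 CPM in inhibitory nuclei. Every animal was lower in its excitatory nuclei, by 3.26 ± 0.12 on the log2 scale (SE, edgeR adjusted p = 1.17e-10). Grik2 was at 956.6, 1050 and 1157 CPM against 2633, 2800 and 3145 CPM, a log2 difference of −1.40 ± 0.03 (adjusted p = 5.02e-23). Gria4 was at 672.5, 758.9 and 892.9 CPM against 1479, 1694 and 2012 CPM (log2 −1.13 ± 0.04, adjusted p = 2.36e-19). In all 3 genes the ranges of the excitatory and inhibitory sums did not overlap. How many of all genes did so was not counted. Gria1 was lower by a smaller step (log2 −0.47 ± 0.04), with 1205, 1313 and 1532 CPM in excitatory nuclei and 1743, 1818 and 2096 CPM in inhibitory nuclei, also without overlap.

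Grik4 was the subunit most raised in the sum of excitatory nuclei. It stood at 208.5, 239.1 and 292.9 CPM, against 79.0, 118.2 and 150.3 CPM in inhibitory nuclei (log2 1.11 ± 0.07, adjusted p = 4.64e-10), and the ranges did not overlap. Grik5 (log2 0.39 ± 0.05) and Gria2 (log2 0.28 ± 0.03) were higher in the excitatory nuclei of 12 of 12 animals. Gria3 passed on p but not on size (log2 0.18 ± 0.04, adjusted p = 9.49e-05). Grik3 did not pass (log2 0.08 ± 0.06, adjusted p = 0.264), and was higher in excitatory nuclei in 7 of 12 animals. Both genotypes are pooled here. The Grik3 means in excitatory and inhibitory nuclei were 156.3 and 170 CPM in WT and 209 and 181.4 CPM in Het animals. The contrast was not tested within a genotype. The pooled directions did not hold for each class in WT animals. Vip-like nuclei exceeded L2/3 IT-like nuclei in Grik4 (357.6 against 206 CPM) and Gria2 (1713 against 1529 CPM). Striatal projection-like nuclei had the highest Grik5 (188.4 CPM). Grik1 was at 1303 CPM in L5 NP-like and 38.8 CPM in striatal projection-like nuclei. DG-like nuclei exceeded Pvalb-like nuclei in Gria1 (3058 against 1814 CPM) and Grik2 (2534 against 2154 CPM). Of the 27 genes of the pathway list, which holds auxiliary, scaffold, editing and delta receptor genes, 22 passed, 10 higher and 12 lower.

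**Figure D2:**
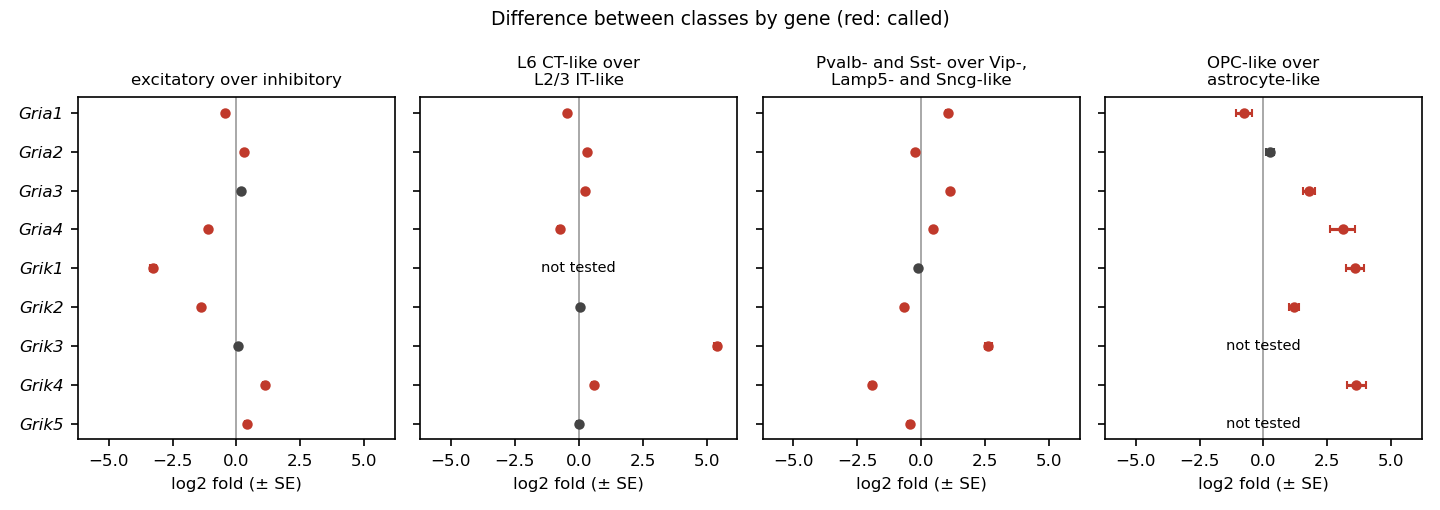
Log2 fold change (± SE) of each subunit gene in 4 comparisons of classes within animals, with called genes in red. Grik1 lies farthest below 0 in excitatory over inhibitory nuclei (−3.26) and the point of Grik3 in L6 CT-like over L2/3 IT-like nuclei (5.39) is a fitted value on 44.6 UMIs in L2/3 IT-like nuclei.

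Interneurons of the medial ganglionic eminence (Pvalb-like and Sst-like) were compared with those of the caudal ganglionic eminence (Vip-like, Lamp5-like and Sncg-like). Here 8 of 9 subunits passed, 4 in each direction, against 41.3% of 6394 genes (20.1% higher, 21.2% lower). Grik3 was at 198.2, 231 and 272.8 CPM in the first and 9.56, 34.2 and 57.5 CPM in the second set, and each animal was higher in the first (log2 2.63 ± 0.14, adjusted p = 8.01e-13). Grik4 went the other way, with 43.9, 59.5 and 71.6 CPM against 167.1, 212.9 and 281.6 CPM (log2 −1.93 ± 0.08, adjusted p = 1.33e-29). In these pooled sums neither gene overlapped between the sets, in opposite directions, and the share of all genes without overlap was not counted. Single classes did overlap in WT animals. Grik4 was at 51.1 to 143.8 CPM in Sst-like and 84.7 to 140.7 CPM in Lamp5-like nuclei. Grik3 was at 78.3 to 126.6 CPM in Pvalb-like and 17.8 to 94.9 CPM in Vip-like nuclei.

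Gria3 (log2 1.13 ± 0.06) and Gria1 (log2 1.04 ± 0.05) were higher in Pvalb- and Sst-like nuclei of 12 of 12 animals, and so was Gria4 by a smaller step (log2 0.46 ± 0.04). Grik2 (log2 −0.66 ± 0.04) and Gria2 (log2 −0.24 ± 0.04) were lower in 12 of 12 animals, and Grik5 (log2 −0.43 ± 0.09) in 10. Grik1 did not pass the size limit (log2 −0.12 ± 0.05, adjusted p = 0.0246) and was higher in the first set in 6 of 12 animals. Its classes differed within each set. In WT animals Grik1 was at 1379 CPM in Pvalb-like and 1950 CPM in Sst-like nuclei. It was at 694.5 CPM in Vip-like, 1412 CPM in Sncg-like and 2355 CPM in Lamp5-like nuclei. Gria2 lay near the size limit of 0.2. The pooled differences of Gria2, Gria4 and Grik5 did not hold for each class: Gria2 in Lamp5-like WT nuclei (1035 CPM) was below Pvalb-like (1153 CPM) and Sst-like nuclei (1150 CPM) while Vip-like nuclei had 1713 CPM, and Gria4 in Lamp5-like nuclei (1849 CPM) was level with Sst-like nuclei (1833 CPM). Grik5 in Sst-like nuclei (101.1 CPM) was above Vip-like (81.7 CPM) and Sncg-like nuclei (93.6 CPM) and below Lamp5-like nuclei (125.6 CPM). Of the pathway genes 16 of 25 tested passed, among them Neto1 (log2 1.00 ± 0.06) and Neto2 (log2 1.13 ± 0.09), the auxiliary proteins of kainate receptors, named here after their values were seen.

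Deep corticothalamic (L6 CT-like) nuclei were set against upper-layer (L2/3 IT-like) nuclei. Of 8 subunits tested 6 passed, 4 higher and 2 lower, against 41.8% of 5946 genes (20.7% higher, 21.1% lower). Grik3 was at 363.2, 504 and 572.7 CPM in L6 CT-like nuclei and at 0, 11.1 and 35.8 CPM in L2/3 IT-like nuclei, where it rested on 44.6 UMIs in all, and it passed the filter through its level in L6 CT-like nuclei. It therefore had to differ, so its pass is a description and no support, and its log2 difference of 5.39 ± 0.12 is a fitted value on few UMIs. Grik4 (log2 0.59 ± 0.07), Gria2 (log2 0.34 ± 0.04) and Gria3 (log2 0.24 ± 0.05) were higher in L6 CT-like nuclei in 12 of 12 animals. Gria4 (log2 −0.74 ± 0.06) and Gria1 (log2 −0.45 ± 0.04) were lower in 12 of 12. Grik2 and Grik5 did not pass (adjusted p = 0.487 and 0.883), and Grik1, at or below 13.2 CPM in both classes, was too low to be tested. Of the pathway genes 13 of 22 tested passed.

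Among glia, OPC-like nuclei were compared with astrocyte-like nuclei in the 9 animals that had at least 10 of each. Of 7 subunits tested 6 passed, 5 higher and 1 lower, against 57.3% of 1434 genes (31.3% higher, 25.9% lower). In the genotype fit of astrocyte-like nuclei only Gria2 and Grik2 passed the filter on low counts. Grik1 and Grik4 had 14 and 13.8 UMIs, Gria4 55.3 and Gria3 77 in astrocyte-like nuclei over the 9 animals. A subunit that enters the test through its level in OPC-like nuclei had to differ, so the number of passes is a description and no support, and the folds of Grik1 and Grik4 are fitted values on few UMIs. Grik4 was at 286.8, 434.3 and 606.9 CPM in OPC-like and at 0, 28.5 and 97.8 CPM in astrocyte-like nuclei (log2 3.63 ± 0.36, adjusted p = 9.18e-08). Grik1 differed by 3.58 ± 0.34 and Gria4 by 3.10 ± 0.48 on the log2 scale, with no overlap between the classes. The share of all genes without overlap was not counted for this pair of classes. Both classes carried some neuronal marker RNA, 2.73% and 7.14% of the excitatory and inhibitory level in OPC-like and 7.49% and 8.77% in astrocyte-like nuclei, and its part in these differences was not tested.

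Gria3 (log2 1.78 ± 0.23) was higher in the OPC-like nuclei of 9 of 9 animals and Grik2 (log2 1.19 ± 0.20) in 8 of 9. Gria2 was at 1780, 2051 and 2267 CPM in OPC-like and 937, 1846 and 2473 CPM in astrocyte-like nuclei and did not pass (log2 0.26 ± 0.15, adjusted p = 0.154). Gria1 was lower in OPC-like nuclei (log2 −0.76 ± 0.30, adjusted p = 0.0417), with higher values in OPC-like nuclei in 2 of 9 animals, and DESeq2 called 5 of the 7 subunits in place of 6. Grik3 and Grik5 had 11 and 29 UMIs in astrocyte-like nuclei and were not tested. Of the pathway genes 7 of 9 tested passed.

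The genotype comparison asked whether loss of 1 Myt1l copy changed the receptor genes. In 21 fits (18 classes and the sums of all, of excitatory and of inhibitory nuclei), 156 tests of a subunit were possible and 1 passed, where 0.124% of all 99581 gene tests passed. This was Grik3 in the sum of all excitatory nuclei, which was higher in Het animals. In the 18 classes taken singly, 0 of 129 subunit tests passed with edgeR and 0 with DESeq2. Of these tests 18 (14.0%) had an unadjusted p under 0.05, against 6.43% of all tests in the same fits, and 45 pointed up and 84 down in Het animals, with a median log2 difference of −0.05.

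Grik3 in all excitatory nuclei was at 133.1, 157.9 and 177.7 CPM (lowest, median and highest) in WT and at 195.3, 214 and 217.6 CPM in Het animals. The 6 Het animals, males and females alike, lay above the 6 WT animals. How many of all genes had WT and Het animals without overlap was not counted, here or in the sums and classes below. The log2 difference was 0.40 ± 0.06 (SE, n = 6 against 6, edgeR quasi-likelihood test, adjusted p = 0.00543), in a fit in which 0.148% of 14179 genes passed. Leaving out each animal in turn gave 0.36 to 0.43 with adjusted p from 0.00176 to 0.025.

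The sum of all excitatory nuclei mixes classes that differ widely in Grik3. L6 CT-like nuclei made up 12.6%, 15.5% and 19.1% of the excitatory nuclei in WT and 14.9%, 16.8% and 19.0% in Het animals, ranges that overlap. Without the L6 CT-like nuclei, Grik3 was at 89.3, 100.6 and 116.2 CPM in WT and 128.7, 140.1 and 152.1 CPM in Het animals. The log2 difference in this sum was 0.45 ± 0.07 (edgeR, adjusted p = 0.0287, in a fit in which 0.037% of 13516 genes passed), and the groups did not overlap. This sum was chosen after the first result was seen. It was not free of deep-layer nuclei, since it kept the L5 NP-like, L6 IT-like, L6b-like and unnamed excitatory nuclei. The L5 NP-like nuclei, at 388.4 CPM of Grik3 in WT, held 1247 Grik3 UMIs in all. Among the unnamed was a component of 476 nuclei whose best marker list was that of L6 CT (score 2.35, 5 markers raised). In the paper's own clusters, some deep-layer types were more frequent in Het cortex at P21 and some upper-layer types less so. The part of shifts in the shares of the excitatory classes in the Grik3 difference was not tested.

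No class taken singly passed for Grik3. In L6 CT-like nuclei the values were 363.2, 451.2 and 504 CPM in WT and 503.9, 531.8 and 572.7 CPM in Het animals (log2 0.24 ± 0.08, adjusted p = 0.138, in a fit in which 0.632% of 7599 genes passed). The lowest Het animal lay just under the highest WT animal. In L4/5 IT-like nuclei they were 20.2, 31.5 and 45.0 CPM against 37.3, 58.9 and 82.0 CPM (log2 0.86 ± 0.22, adjusted p = 0.121), with 253.6 UMIs in all. In L5 NP-like nuclei they were 310.4, 386.8 and 467.6 CPM against 431.8, 476.4 and 485.6 CPM (log2 0.22 ± 0.11, adjusted p = 0.665).

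DG-like nuclei had Grik3 at 36.7, 50.7 and 54.8 CPM in WT and 60.7, 72.4 and 141.8 CPM in Het animals, without overlap (log2 0.67 ± 0.26, adjusted p = 0.503). In striatal projection-like nuclei, the output neurons of the striatum, it was at 78.1, 95.6 and 133.6 CPM against 127.3, 144.1 and 162.2 CPM (log2 0.50 ± 0.15, adjusted p = 0.877). Over all inhibitory nuclei the groups overlapped nearly in full, with 146.8, 166.1 and 213.2 CPM in WT and 155.7, 176.9 and 220.8 CPM in Het animals (log2 0.08 ± 0.09, adjusted p = 0.962). Grik3 was tested in 11 classes and was above 0 in 9 of them, and Pvalb-like (log2 −0.29 ± 0.15) and OPC-like nuclei (log2 −0.04 ± 0.25) were the exceptions. The difference between the excitatory and the inhibitory effect was not tested. Striatal projection-like nuclei numbered 40 to 82 per WT and 99 to 244 per Het animal, among 367 to 762 and 486 to 1042 inhibitory nuclei. The part of this class in the differences over all inhibitory nuclei was not tested for any subunit.

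**Figure D3:**
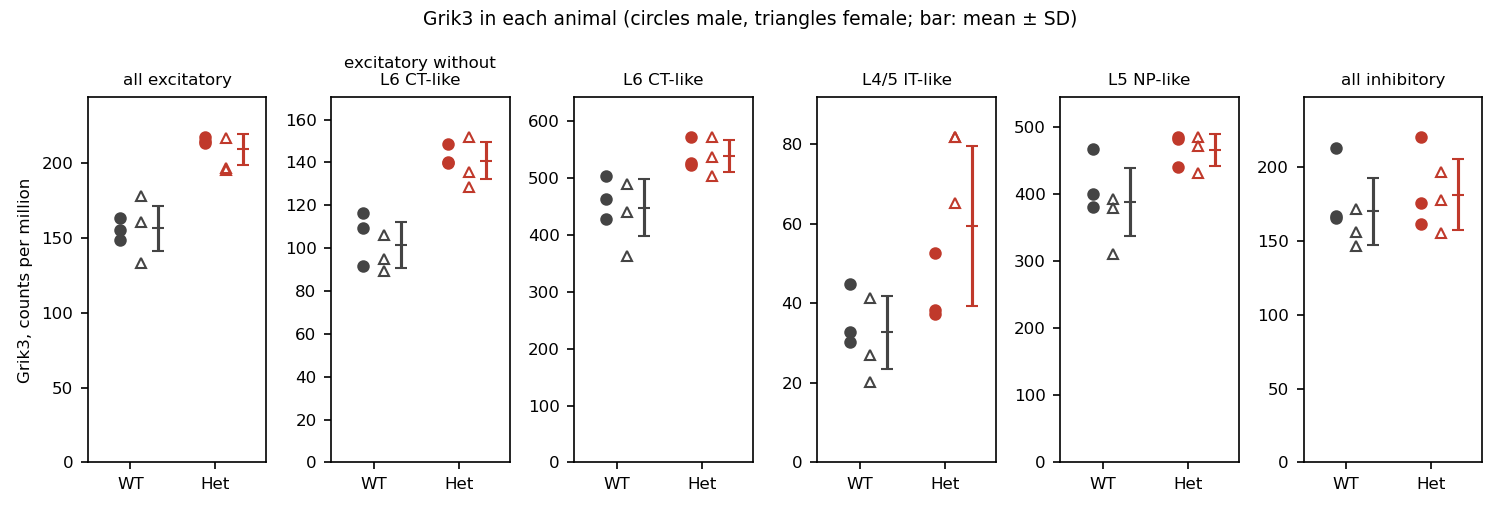
Grik3 level in each of the 12 animals in 6 sets of nuclei, in CPM from 0, with WT in grey, Het in red, males as circles, females as triangles and the mean ± SD beside them. In all excitatory nuclei the Het animals (195.3 to 217.6) lie above the WT animals (133.1 to 177.7), while in all inhibitory nuclei the genotypes overlap.

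The other kainate subunits did not pass in any fit. Grik2 was below 0 in 16 of the 17 classes in which it was tested, with log2 differences from −0.61 in microglia-like to 0.38 in astrocyte-like nuclei and a median of −0.16. Over all excitatory nuclei it was at 1015, 1098 and 1157 CPM in WT and 956.6, 1007 and 1084 CPM in Het animals (log2 −0.14 ± 0.05, adjusted p = 0.371). In L6 CT-like nuclei it was at 983.5, 1034 and 1068 CPM against 881.9, 939.9 and 995.7 CPM (log2 −0.16 ± 0.07, adjusted p = 0.318), and the groups overlapped in both, by less in L6 CT-like nuclei.

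As a share of the kainate subunit UMIs of L6 CT-like nuclei, Grik2 made up 50.1%, 53.6% and 56.6% in WT and 45.5%, 46.8% and 49.0% in Het animals, and Grik3 19.8%, 23.0% and 26.1% against 25.3%, 27.1% and 29.5%. The Grik2 shares did not overlap and the Grik3 shares did. Over all excitatory nuclei the Grik2 share was 60.3%, 63.7% and 64.6% in WT and 55.5%, 58.6% and 59.7% in Het animals, and the Grik3 share 7.79%, 9.22% and 10.2% against 10.7%, 12.4% and 12.7%. Neither share overlapped there. The shares of one family add up to the whole, so these are not separate results, and they were not tested.

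The high-affinity subunits did not pass in excitatory nuclei. Grik4 was at 208.5, 222 and 240.5 CPM in WT and 237.6, 253 and 292.9 CPM in Het animals (log2 0.19 ± 0.06, adjusted p = 0.235). Grik5 was at 123.1, 135 and 146.1 CPM against 125.9, 158.7 and 168.1 CPM (log2 0.17 ± 0.06, adjusted p = 0.417). In L6 CT-like nuclei Grik5 had its smallest p (0.00344, adjusted 0.146), at a log2 difference of 0.31 ± 0.10. Of the 13 classes tested for Grik5, 8 were above 0 and 5 below, among them Lamp5-like nuclei (log2 −0.55 ± 0.19, adjusted p = 0.691). Grik1 was at 92.9, 126.9 and 153.6 CPM in WT and 80.3, 99.98 and 168.4 CPM in Het excitatory nuclei, with overlap (log2 −0.22 ± 0.20, adjusted p = 0.86), and over all inhibitory nuclei its difference was −0.21 ± 0.11 (adjusted p = 0.773). Striatal projection-like nuclei, more numerous in Het animals, had 38.8 ± 76.9 CPM of Grik1 in WT, and their part in the inhibitory difference was not tested.

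No AMPA subunit passed in any fit. The paper lists Gria4 among its cluster genes higher in WT than in Het animals at P21. It used its own clusters, DESeq2 and more nuclei than the 33116 kept here. In most classes here Gria4 was also lower in Het animals, as given below, but no test of it passed. Why the calls differ was not tested. In all excitatory nuclei the log2 differences were 0.04 ± 0.05 for Gria1, −0.01 ± 0.07 for Gria2, −0.05 ± 0.09 for Gria3 and −0.13 ± 0.07 for Gria4, with adjusted p of 0.688 or more. Gria2 stood at 1381, 1667 and 1732 CPM in WT and at 1405, 1599 and 1794 CPM in Het animals. Gria4 was below 0 in 14 of 17 classes (median −0.14), and in all inhibitory nuclei it was at 1658, 1774 and 2012 CPM in WT and 1479, 1595 and 1815 CPM in Het animals (log2 −0.18 ± 0.07, adjusted p = 0.567). Striatal projection-like nuclei had 710.1 ± 40.1 CPM of Gria4 in WT, and their part in the inhibitory difference was not tested. Gria3 was below 0 in 13 of 15 classes (median −0.14) and Gria2 in 14 of 17 (median −0.04). The classes of an animal share its library, so these counts of classes are not independent.

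A difference of the genotype effect between the sexes was found for 0 of 163 subunit tests with edgeR and 0 with DESeq2, where 0.014% of all 113937 tests passed at an adjusted p under 0.05. At an unadjusted p under 0.05 there were 14, of which 13 were among the 136 tests in single classes (9.56%, against 5.02% of all tests in those fits). Grik1 in L4/5 IT-like nuclei came nearest, with males at 203.3, 273.6 and 214.7 CPM in WT and 69.9, 130.3 and 133.8 CPM in Het, and females at 105.4, 158.1 and 219.1 CPM in WT and 204.2, 192.4 and 168.1 CPM in Het (log2 difference of the effects, male minus female, −1.19 ± 0.29, adjusted p = 0.07). The WT and Het males did not overlap, whereas the females did. For Grik3 in all excitatory nuclei the sexes differed by 0.04 ± 0.13 in their effect (adjusted p = 0.984). In L4/5 IT-like nuclei the Grik3 effect was smaller in males (log2 −1.16 ± 0.42, adjusted p = 0.395). Of the 11 classes tested for Grik3, 8 were below 0 and 3 above.

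Of the 27 pathway genes, 338 genotype tests were made and 1 passed. Gsg1l, which encodes an auxiliary protein that slows the recovery of AMPA receptors from desensitisation, was at 50.5, 88.2 and 114 CPM in WT and 108.5, 131.2 and 146.9 CPM in Het L6 CT-like nuclei (log2 0.56 ± 0.13, adjusted p = 0.0357). The highest WT animal lay above the lowest Het animal. The call was lost when any of 7 animals was left out, with log2 differences from 0.43 and adjusted p up to 0.103, and when nuclei above the upper limits on UMIs and genes were kept (0.40, adjusted p = 0.0949). Cacng2, encoding stargazin, an AMPA receptor trafficking protein, was at 124.7, 149.6 and 157.9 CPM in WT and 168.3, 196.8 and 222.9 CPM in Het L4/5 IT-like nuclei. These did not overlap but the test did not pass (log2 0.45 ± 0.11, adjusted p = 0.0987), and Cacng2 was above 0 in all 10 classes tested. Neto2 in L6 IT-like nuclei had the next smallest p (log2 −1.01 ± 0.26, adjusted p = 0.148, 4 WT and 6 Het animals). By group, the median log2 difference over the classes was 0.07 for the AMPA auxiliary genes, −0.01 for the kainate auxiliary and the scaffold and trafficking genes, 0.05 for the editing enzymes and −0.05 for the delta receptor genes, beside −0.05 for the subunits.

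Genes with a pattern like that of each subunit were sought by Pearson's correlation of log2(CPM + 1) of the WT means over the 18 classes. The 11298 candidate genes reached 20 CPM in at least 1 class and were neither subunits nor marker genes of the classes. The classes share libraries and differ in depth, and the values are given as a description. Gria1 was most like Lonrf2 (r = 0.952), Rbfox1 and Dlgap2, Gria2 most like Apba2 (0.963), Map2 and 3110039M20Rik, Gria3 most like Trerf1 (0.906), Gm45177 and Mcf2l, and Gria4 most like Rab3c (0.859), Nipal2 and Flywch1. Grik1 was most like Alk (0.852), Kcnip1 and Depdc5, Grik3 most like Fut9 (0.813), Tmx2 and Spon1, Grik4 most like March1 (0.909), Pdzrn4 and Gm2824, and Grik5 most like Unc79 (0.951), Klhl3 and Gp1bb. The 2 genes most like Grik2, Gm47022 (0.923) and Gm47017 (0.882), lie within Grik2 on the same strand and can share its reads, and Ptpro (0.881) was the next. Among the subunits themselves the highest correlation was that of Gria2 with Grik5 (r = 0.902) and the lowest that of Gria3 with Grik1 (r = −0.04).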

How the data were processed

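Per the labels and the methods of the study, reads of Scale Biosciences single-nucleus libraries were mapped to mm10 and counted with ScaleRna by the authors. The deposited values are expected counts of UMIs per gene and nucleus, not normalized, in which a UMI that fits several genes is divided among them, and 92.3% of the entries above 0 were whole. Whether introns were counted is not given in the sources used here. The submitters' processing notes also name Seurat and DESeq2. Total UMIs per animal were 23425408 to 59947428.

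The study's limits were applied, and 34860 nuclei met them: UMIs between 800 and 6000, genes between 300 and 3000, no more than 1% of UMIs mitochondrial, and log genes over log UMIs no lower than 0.9. The smallest barcode of each animal held 1500 to 2179 UMIs, so the lower UMI limit removed none, and smaller nuclei were not analysed here. The study states more nuclei at this age than the 78743 barcodes analysed here. The 1744 nuclei with the highest Scrublet scores, 5% per animal (scanpy 1.11.5), were removed. A Poisson mixture of 35 components was fitted to the UMIs of 122 marker genes, with 12 starts. Components were named by the mean log2 ratio of a marker list (at least 1.8 for neurons and 3 for other cells), with at least 3 markers raised 2-fold, and a nucleus joined a class at a summed posterior of at least 0.9. Of the components 15 stayed unnamed. The limits were set after the components were seen and before genotypes were compared.

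Counts were summed per animal and class, rounded to whole numbers and tested with edgeR 4.0.16 (TMM, filterByExpr, robust quasi-likelihood fit) in R 4.3.3, with genotype only for Het against WT, genotype, sex and their product for the interaction, and animal as a block for classes. Animals entered with at least 10 nuclei and classes with at least 3 such animals per genotype. The p-values were adjusted by Benjamini-Hochberg over all genes tested in a fit. The tdTomato transcript was left out. The scripts were tested on simulated data. The subunits, the pathway list and the tests were chosen with earlier results of these data known. All subunits were named. For Het against WT, the pathway genes called or with the 3 smallest p were named. Between classes, where the same rule would name most of them, the called pathway genes were only counted, and Adarb1, Neto1 and Neto2 were named after their values were seen. For each subunit the 3 genes most like it were named.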

Additional observations from a re-analysis of the deposited data

Results flagged for a closer look

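Of 72 sets of 4 to 10 animals tested for a single value far from the rest, 4 held one, and chance gives about 1 in 20. Gria1 in all excitatory nuclei was at 1532 CPM in the first Het female, with the other Het animals at 1271 to 1339 CPM. With an animal left out, the log2 difference of Gria1 between Het and WT excitatory nuclei ranged from 0.003 to 0.061. Gria1 in all inhibitory nuclei was at 2096 CPM in the third WT male, with the other WT animals at 1797 to 1905 CPM. Gria4 in Pvalb-like nuclei was at 3037 CPM in the third WT female, against 2536 to 2689 CPM in the other WT animals. Grik3 in all inhibitory nuclei was at 213.2 CPM in the second WT male, against 146.8 to 171.5 CPM in the other WT animals. Without that animal, the Grik3 difference between Het and WT inhibitory nuclei was 0.15 on the log2 scale in place of 0.08 and did not pass (adjusted p = 0.667). Without the third Het male it was 0.012 (adjusted p = 0.994), the lowest value with an animal left out.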

How the results depend on the processing

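Grik3 in all excitatory nuclei stayed called under every alternative run. The 1 subunit call over all fits became 2 with DESeq2, 2 with no filter on low counts (both adding Grik3 in all nuclei) and 2 without the upper limits on nuclei (adding Grik3 in L6 CT-like nuclei, 0.29, adjusted p = 0.0213), and was 1 with each animal left out. The 1 pathway call became 3 with DESeq2, 4 with no filter and 2 without the upper limits, and ranged from 0 to 2 with an animal left out. Gsg1l in L6 CT-like nuclei was lost without the upper limits (0.40) and with 7 of the 12 animals left out. The 0 interaction calls became 1 with no filter, Grik1 in L4/5 IT-like nuclei, and ranged from 0 to 1 with an animal left out (1 without the third WT female or the third Het male). With replicate numbers within a sex as a block, 1 subunit and 2 pathway calls were made, and the numbers do not pair the animals, since their deviations correlated by −0.33 to 0.05.

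Changes of sign were of uncalled log2 values near 0. Grik4 in all inhibitory nuclei (−0.009) became 0.013 with no filter and 0.027 without the upper limits. With an animal left out it ranged from −0.085 to 0.077, Gria2 from −0.057 to 0.024 in all excitatory and from −0.007 to 0.059 in all inhibitory nuclei, Gria3 in all excitatory nuclei from −0.099 to 0.000, and Gria4 in L6 CT-like nuclei from −0.085 to 0.011. Of the other values, 573 kept direction and call. Grik1 in all excitatory nuclei kept its direction with an animal left out, but ranged from −0.399 to −0.149. Low counts limit Grik3 in upper layers, Grik1 in most excitatory classes and the astrocyte-like values other than Gria2 and Grik2. The causes of these changes were not tested.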
